A study of Mus musculus with 234 samples.

Results

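The 5 troponin transcripts described here are Tnni1, Tnni3, Tnnt2, Tnnt1 and Tnnc1, 5 rows of a table of 55538 features read by name. They were chosen by their levels in homozygous bright against control CMs and by the Tnni1 share of Tnni1 plus Tnni3 counts in each cell and mouse, across 5 genotype and brightness labels. Troponin is the calcium switch of the thin filament and has 3 subunits: troponin C binds calcium, troponin I holds the filament in its inhibited state, and troponin T ties the complex to tropomyosin. The rodent heart expresses the slow skeletal troponin I gene, Tnni1, before birth and replaces it with the cardiac gene, Tnni3, around and after birth. Tnnt2 encodes cardiac troponin T, Tnnt1 slow skeletal troponin T, and Tnnc1 the troponin C shared by heart and slow muscle.

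The counts came from 234 hand-picked cardiomyocytes (CMs) of 5 mice, sequenced singly by a full-length poly(A) protocol without molecular identifiers. Homozygous mice M25 and M116 carried CAG-flox-hBAG3P209L-eGFP at the Rosa26 locus on both alleles together with PGK-Cre, a Cre under a promoter active in most tissues, with the STOP cassette removed from 1 or both alleles. Their CMs were labelled bright or dim by eGFP fluorescence. Control mice M26 and M73 are labelled wt, and the study's methods describe controls as siblings that were wild type, Cre only or flox only, with no agent given to any group, and mouse M72 was heterozygous. Homozygous and control mice were 2 weeks old, whereas the age of M72 was not given. All transgenic mice descend from 1 targeted stem cell clone, the labels name C57BL/6 as strain and the study's methods a mixed background, and atria had been removed before the cells were picked.

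Since the mouse is the replicate, all cells of 1 mouse with the same brightness label were added together, which gave 8 sums of 9 to 59 cells and 4096609 to 40508124 counts. The median cell held 711527 counts, and 15 wells had counts for fewer than 1000 genes. Human BAG3 transcript (hBAG) stood at 0.446 and 0.580 normalized CPM, counts scaled to a fixed library size, in the controls, at 10.4 and 91.1 in homozygous dim CMs of M25 and M116, and at 280 and 209 in their bright CMs. In mouse M72 the order of the labels was the opposite, with 110 in cells labelled bright and 243 in cells labelled dim. Ventricular CM markers (6 genes) summed to between 41615 and 64624 CPM in every sum. A group of 3 wells, all labelled homozygous bright of M25, had 419 to 528 CPM of these markers, against at least 19602 in each of the others; 1 of these wells carried 33334 CPM of fibroblast markers. These wells had 1 Tnni1 count in all and stayed in the sums. Atrial markers (5 genes) summed to 4.76 to 440.9 CPM, mostly Nppa except in M72 cells labelled bright, with Sln and Bmp10 at 0 in every sum, and the 8 skeletal muscle markers summed to at most 3.91 CPM. Immune markers (5 genes) summed to 57.3 and 49.6 CPM in dim CMs of M25 and M116, against 1.69 and 3.17 in controls M26 and M73 and 0.264 and 1.97 in bright CMs of M25 and M116. Smooth muscle and pericyte markers (5 genes) summed to 27.2 and 22.5 CPM in bright CMs, 60.2 and 64.3 in dim CMs and 57.6 and 81.8 in controls, and their part and that of immune cells in the results was not tested. Endothelial markers summed to 49.3 to 142 CPM and fibroblast markers to 13.8 to 284 CPM apart from 1661 CPM in bright CMs of M25.

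The sequences before the annotated starts of both troponin I genes are given because the results turn on this pair. They are the 250 bases upstream of the first Tnni1 start at chr1:135799171-135799420 (plus strand) and of the Tnni3 start at chr7:4522529-4522778 (minus strand), from RefSeq, build GRCm38.p6. Both are written 5′ to 3′ along the gene, and capitals mark E-boxes (CANNTG, which reads the same on both strands).
Tnni1: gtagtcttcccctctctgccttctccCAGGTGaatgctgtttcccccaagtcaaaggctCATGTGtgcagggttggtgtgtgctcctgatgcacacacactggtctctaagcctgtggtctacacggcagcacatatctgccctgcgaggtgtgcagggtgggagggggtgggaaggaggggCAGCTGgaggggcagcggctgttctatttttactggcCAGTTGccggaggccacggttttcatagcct
Tnni3: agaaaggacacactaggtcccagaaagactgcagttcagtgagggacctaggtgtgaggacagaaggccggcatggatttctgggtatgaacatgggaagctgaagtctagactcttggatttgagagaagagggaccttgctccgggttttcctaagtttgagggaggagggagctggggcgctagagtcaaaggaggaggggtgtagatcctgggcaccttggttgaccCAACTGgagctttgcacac
The Tnni1 window held 4 E-boxes and the Tnni3 window 1, a motif present in 66.2% of 32851 promoter windows of this length. No match to the MEF2 consensus (2.92% of windows, by name), the CArG box (1.47%, by name), M-CAT (CATTCC, 12.6%), GATAA (22.6%) or TATAAA (12.4%) was found on either strand of either window. All 5 members matched a RefSeq entry, with 7 windows among them, and a second Tnni1 window held 2 E-boxes. In this build Tnni1 and Tnnt2 lie near each other on chromosome 1, with Lad1 between them, and Tnnt1 and Tnni3 are neighbours on chromosome 7.

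Tnni1 was scarce in control CMs and more abundant in every homozygous sum. Its counts were 242 in control M26 and 11 in control M73, 1364 and 9905 in dim CMs of M25 and M116, and 2878 and 15565 in their bright CMs. As a share of troponin I counts this was 0.0980% (95% exact Clopper-Pearson interval 0.0860 to 0.111) in M26 and 0.0226% (0.0113 to 0.0404) in M73. The homozygous dim sums stood at 0.738% (0.700 to 0.778) in M25 and 3.82% (3.751 to 3.899) in M116. Homozygous bright sums stood at 1.58% (1.52 to 1.64) in M25 and 5.09% (5.02 to 5.17) in M116. No homozygous sum overlapped a control, and both classes of M116 were above both classes of M25. These intervals cover counting error only, since reads copied in PCR are not independent molecules.

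Group means of the share were 0.0603% ± 0.0533 for control, 2.28% ± 2.18 for homozygous dim and 3.34% ± 2.49 for homozygous bright CMs (SD, n = 2 mice each). The troponin genes were chosen with this pattern known, so the values against control are a description without a test. Libraries of M25 and M26 share one library name series and those of M116 and M73 another. Within the first the share was 1.58% in bright and 0.738% in dim CMs against 0.0980%, and within the second 5.09% and 3.82% against 0.0226%.

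**Figure D1:**
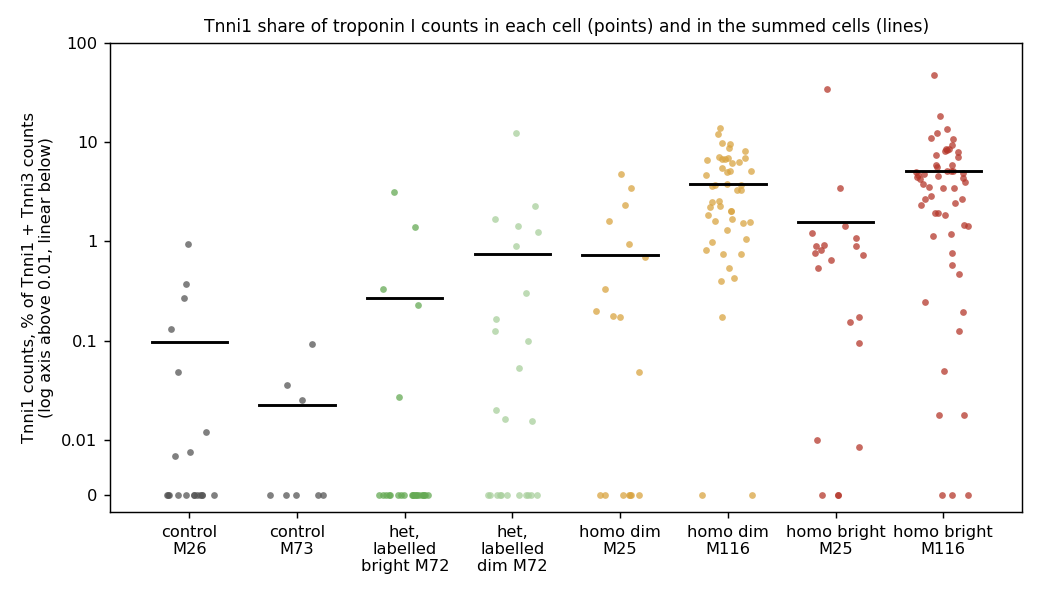
Tnni1 counts as a percentage of Tnni1 plus Tnni3 counts in each cell with at least 20 such counts (points, log axis above 0.01) for the 8 combinations of mouse and class, with black lines for the summed cells. No control cell reaches 1%, most cells of M116 lie above it, and 1 bright cell of each homozygous mouse lies far above its neighbours.

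The share per cell showed how unevenly Tnni1 was distributed. Among cells with at least 20 troponin I counts, a share of 1% or more was found in none of 20 and 8 control cells, in 4 of 18 dim and 5 of 21 bright cells of M25, and in 38 of 48 dim and 45 of 57 bright cells of M116. Median shares were 0 in both controls, 0.174% and 0.734% in dim and bright cells of M25, and 3.30% and 3.93% in dim and bright cells of M116. The highest shares were 0.941% and 0.0928% in the controls, 4.72% and 13.8% in dim cells of M25 and M116, and 33.9% and 46.8% in their bright cells. In M116 most cells carried Tnni1 at 1% or more, and in M25 a minority did.

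The bright cell at 46.8% held 2692 Tnni1 and 3056 Tnni3 counts, and the bright cell at 33.9% held 1441 and 2806. The latter gave 50.1% of all Tnni1 counts in the bright sum of M25, and without the cell of highest Tnni1 CPM that sum fell to 0.808% and the bright sum of M116 to 4.29%. Dim sums without their highest cell were 0.495% in M25 and 3.62% in M116, and controls 0.0521% and 0.00973%. Without the 3 wells low in ventricular markers the bright sum of M25 was at 1.59%. Nppa, the natriuretic peptide of the atria and the fetal or stressed ventricle, was at 1794 and 3066 CPM in these 2 bright cells and at 2553 CPM in a bright M116 cell with a share of 12.3%. The atrial light chain Myl7 and Sln were at 0 in all 3 cells, and other bright and dim cells with shares of 13.6% to 18.1% had 0 to 58.0 CPM of Nppa. The cell at 33.9% also carried 1178 CPM of fibroblast markers and counts for 10717 genes, the cell at 46.8% 1.20 CPM and 5805 genes, and a part of other cells in these values was not tested.

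Tnni1 was detected in 8 of 24 and 3 of 9 control wells, 11 of 18 dim and 18 of 21 bright wells of M25, and 46 of 50 dim and 55 of 59 bright wells of M116. These are 33.3% in both controls, 61.1% and 85.7% in M25, and 92.0% and 93.2% in M116. With every cell thinned to 200000 counts, and 20 shallower wells left out, the detected shares were 30.0% and 37.5% in the controls (4 and 1 wells left out), 61.1% and 76.2% in dim and bright cells of M25 (none left out), and 95.8% and 92.3% in those of M116 (2 and 7 left out). The order of controls below M25 below M116 was the same after thinning, which matched total counts only.

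Bright CMs had a higher Tnni1 share than dim CMs of the same animal. The difference was 0.841 percentage points in M25 and 1.27 in M116, a mean of 1.06 ± 0.304 (SD, n = 2). Without the cell of highest Tnni1 CPM in each sum it was 0.312 and 0.676, a mean of 0.494, and the difference of the medians over cells had a mean of 0.592. The genes were chosen with this share known, so no test is given. In M116 the direction in summed counts was not the same under its 2 library names. Under GL9989-2 bright cells stood at 3.09% and dim cells at 3.96%, and under GL9989-3 at 6.90% and 3.64%. The medians over cells were higher in bright cells under both, at 3.46% and 2.55% and at 5.07% and 3.59%. The gap between the mice (3.82% against 0.738% in dim CMs) was larger than the gap between brightness classes within either mouse.

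In heterozygous mouse M72 the cells labelled bright stood at 0.271% (0.243 to 0.302) and those labelled dim at 0.742% (0.697 to 0.790). Both lie above both controls, and the cells labelled dim lie within the interval of the dim sum of M25. The sum labelled dim had 59.9% of its Tnni1 counts in 1 cell with a share of 12.2%, and stood at 0.309% without it. The median share of cells labelled bright was 0, as in both controls. A share of 1% or more was found in 2 of 25 cells labelled bright and 5 of 25 labelled dim. After thinning to 200000 counts Tnni1 was detected in 21.7% and 50% of them (4 and 2 wells left out), against 22.2% and 53.8% unthinned. As hBAG ran against the labels in this mouse, Tnni1 and hBAG were both higher in the cells labelled dim.

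On the scale of normalized CPM over the 8 sums, Tnni1 was 13.5 and 3.19 in controls M26 and M73, 71.7 and 263 in dim CMs of M25 and M116, 145 and 345 in their bright CMs, and 25.5 and 69.7 in cells of M72 labelled bright and dim. The mean was 8.35 ± 7.29 in control and 245 ± 142 in bright CMs (SD, n = 2). The fitted log2 difference was 4.81 ± 0.81 (SE) for bright (28.0-fold) and 4.25 ± 0.90 for dim against the same control mice. The size depended on each mouse: the log2 differences were 6.22 and 5.69 without control M26, 4.19 and 3.63 without control M73, 5.36 and 4.98 without M25, and 4.07 and 3.07 without M116. With the library name series as a block they were 4.90 and 4.18.

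Tnni3, the adult cardiac troponin I, was lower in each homozygous sum than in each control. It stood at 13766 and 14106 normalized CPM in controls M26 and M73, at 9638 and 6618 in dim CMs of M25 and M116, and at 9036 and 6434 in their bright CMs. Cells of M72 labelled bright and dim had 9353 and 9319. The log2 difference was -0.87 ± 0.29 for bright and -0.80 ± 0.34 for dim against control. Scaled by library size alone, which moved the median of all genes from 0.11 to 0.41 in the bright and from 0.10 to 0.38 in the dim comparison, the Tnni3 differences were -0.55 and -0.51. The groups did not overlap on that scale either, and without the 3 wells low in ventricular markers the bright difference was -0.81 ± 0.34.

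**Figure D2:**
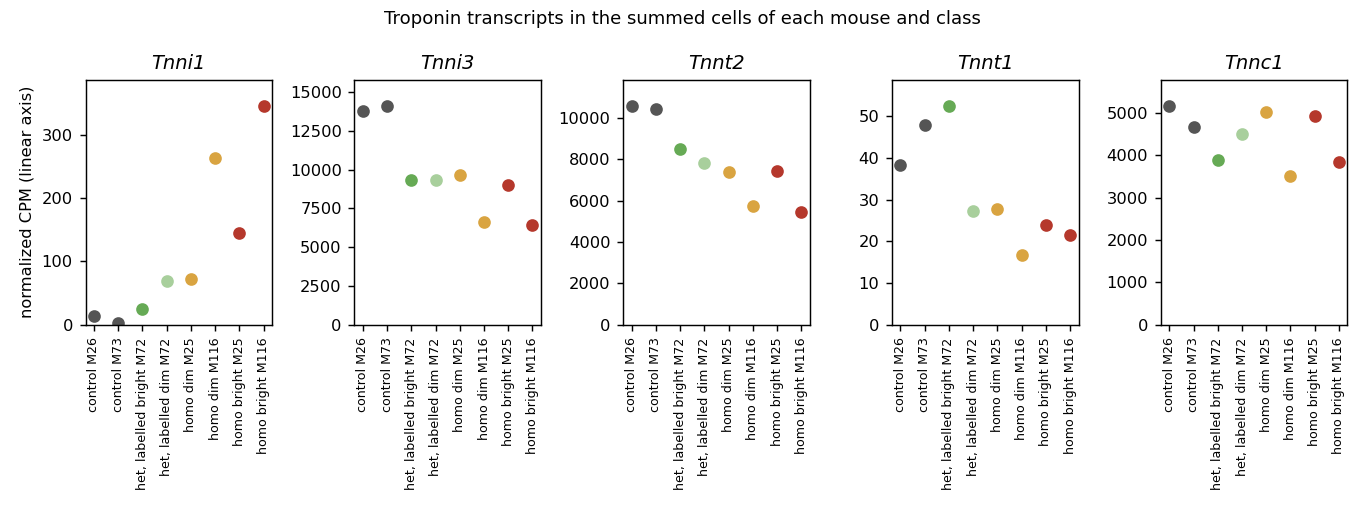
Normalized CPM of the 5 troponin genes (linear axes from 0) in the summed cells of the 8 combinations of mouse and class, 1 point per sum. Tnni1 is highest in M116, Tnni3 and Tnnt2 are highest in the 2 controls, and Tnnc1 overlaps between groups.

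In transcripts the Tnni3 difference was far larger than the Tnni1 difference. Mean Tnni3 was 13936 ± 240 normalized CPM in control and 7735 ± 1840 in bright CMs (SD, n = 2), beside means of 8.35 and 245 for Tnni1. Per kilobase of coding sequence, Tnni1 stood at 271 and 685 CPM and Tnni3 at 14975 and 11307 CPM in bright CMs of M25 and M116. The cell with the highest share was an exception, with 3230 CPM of Tnni1 beside 3667 CPM of Tnni3.

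Tnnt2, cardiac troponin T, was also lower in each homozygous sum than in each control. Its levels were 10587 and 10465 normalized CPM in controls M26 and M73, 7390 and 5756 in dim CMs of M25 and M116, 7455 and 5468 in their bright CMs, and 8483 and 7844 in cells of M72 labelled bright and dim. The log2 differences were -0.73 ± 0.28 for bright and -0.70 ± 0.32 for dim CMs. By library size these were -0.41 and -0.41, and the groups still did not overlap. With equal weight for each cell the dim difference was -0.28.

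Tnnt1, the slow skeletal troponin T, did not follow Tnni1 upward. It was rare throughout, at 38.2 and 47.8 normalized CPM in controls M26 and M73, 27.7 and 16.7 in dim CMs of M25 and M116, 24.0 and 21.5 in their bright CMs, and 52.4 and 27.3 in cells of M72 labelled bright and dim. Its share of Tnnt1 plus Tnnt2 counts lay between 0.290% and 0.614% in all 8 sums, at 0.360% and 0.455% in the controls and 0.321% and 0.391% in bright CMs. The log2 differences were -0.95 ± 0.53 for bright and -0.97 ± 0.57 for dim against control, -0.62 and -0.68 by library size, and -0.35 and -0.53 with equal weight for each cell. Both slow skeletal isoforms are thus rare in control CMs, but only the troponin I one was higher in the homozygous sums, on both scales.

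Tnnc1, troponin C, overlapped between the groups. It stood at 5158 and 4668 normalized CPM in controls M26 and M73, 5017 and 3509 in dim CMs of M25 and M116, 4915 and 3831 in their bright CMs, and 3876 and 4503 in cells of M72 labelled bright and dim. Its log2 difference of -0.19 ± 0.27 for bright and -0.22 ± 0.32 for dim CMs turned positive under library size, at 0.12 and 0.06. With equal weight for each cell it was -0.38 for bright and 0.03 for dim CMs, and the dim difference was 0.01 without M116.

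**Figure D3:**
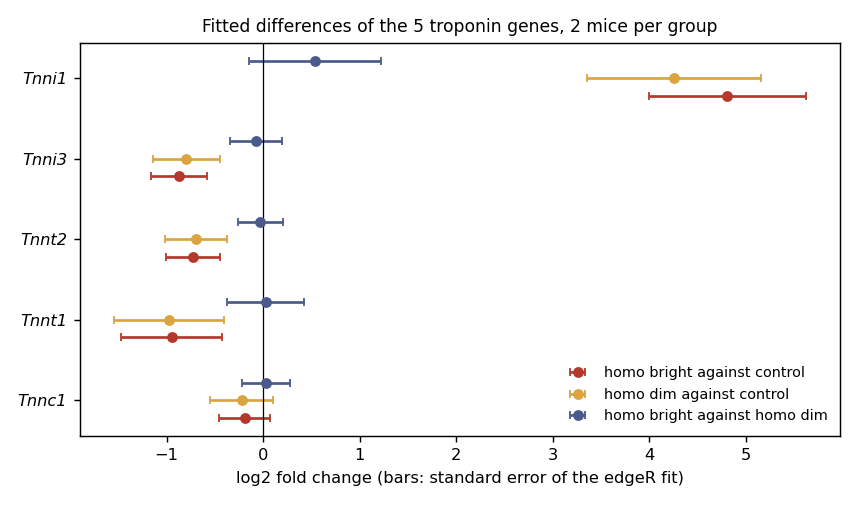
Fitted log2 fold changes of the 5 troponin genes (points) with the standard error of the edgeR fit (bars) in 3 comparisons of 2 mice against 2; both comparisons with control use the same control mice. Tnni1 lies above 4 in both, Tnni3, Tnnt2 and Tnnt1 lie below 0, and all 5 lie within 1 log2 unit of 0 between bright and dim.

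Ratios within a sum do not depend on the scaling and showed the subunits apart. Per kilobase of coding sequence, troponin C over troponin T was 0.910 and 0.832 in the controls, 1.27 and 1.14 in dim CMs of M25 and M116, and 1.23 and 1.31 in their bright CMs. Troponin C over troponin I was 0.490 and 0.433 in the controls, 0.676 and 0.665 in dim, and 0.700 and 0.736 in bright CMs. Troponin I over troponin T overlapped, at 1.86 and 1.92 in the controls, 1.87 and 1.71 in dim, and 1.76 and 1.78 in bright CMs. In mouse M72 the C over T ratio was 0.851 in cells labelled bright and 1.07 in cells labelled dim. Troponin transcripts made up 2.71% and 2.47% of all counts in the controls, 2.29% and 1.77% in dim, and 2.26% and 1.79% in bright CMs.

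The order of the genes per coding kilobase was also not the same in each group. In control M26 Tnni3 came first with 19901 CPM, then Tnnt2 with 10694 and Tnnc1 with 9773, far above Tnnt1 with 44.5 and Tnni1 with 22. In bright CMs of M116 it was Tnni3 with 11307, Tnnc1 with 8823, Tnnt2 with 6714, Tnni1 with 685 and Tnnt1 with 30.4. On this scale Tnnc1 was above Tnnt2 in all 4 homozygous sums and below it in both controls. Without division by coding length Tnnt2 was above Tnnc1 in every sum, at 6083 and 4262 CPM in bright CMs of M116. Tnni1 was above Tnnt1 in all 4 homozygous sums and below it in both controls, with or without that division.

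**Figure D4:**
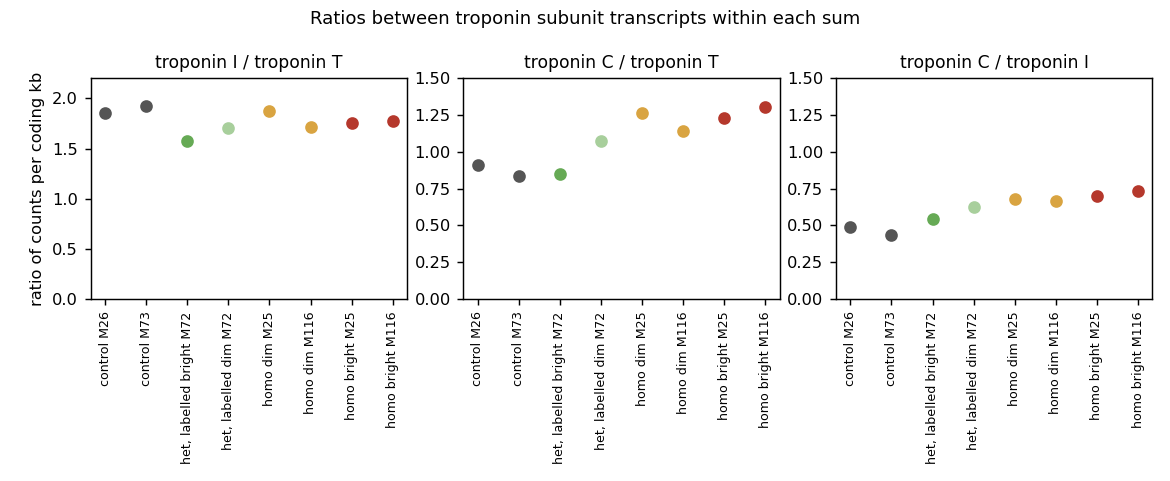
Ratios of troponin I, T and C transcripts (counts per coding kilobase, all genes of a subunit added, linear axes from 0) in each of the 8 sums. Troponin C over T is 1.14 to 1.31 in the 4 homozygous sums and 0.832 and 0.910 in the controls, and troponin I over T overlaps.

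The fast skeletal genes were close to absent. Tnnc2 had 0 counts in every sum. Tnnt3, fast troponin T, had 103 counts in all, 94 of them in dim CMs of M116. Tnni2, fast troponin I, had 120 and 19 counts in controls M26 and M73, 7 and 71 in dim CMs of M25 and M116, 0 and 8 in their bright CMs, and 220 and 50 in cells of M72 labelled bright and dim, and was found in at most 6 cells of any sum.

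Across all genes the design called few differences. With edgeR's quasi-likelihood test and Benjamini-Hochberg adjustment, bright against control CMs gave 2 of 12203 genes (0.0164%) at an adjusted p under 0.05, hBAG and BAG-eGFP, the latter the eGFP part of the transgene, both higher in bright CMs. Dim against control gave 0 of 12195 (0%), with 759 at an unadjusted p under 0.05, 55 by DESeq2 and 1 by limma. Bright against dim gave 0 of 13439 (0%), with 554 at an unadjusted p under 0.05, 89 by DESeq2 and 2 by limma. No troponin gene was among these edgeR calls, and whether Tnni1 was called against control depended on the tool, the filter, the block and the sums kept. As the genes were chosen on these differences, nothing is read from either. In counts simulated for the bright against control comparison, 0 of 46 genes changed 2-fold and 28 of 47 changed 32-fold were recovered.

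Without a test, Tnni1 was higher in both bright sums than in both controls, as were 24.6% of genes, and Tnni3, Tnnt2 and Tnnt1 were lower, as were 14.3% of genes. In dim CMs the same counts of 1 and 3 members stood beside 24.1% and 13.7% of genes. By library size the backgrounds were 33.7% higher and 8.24% lower in bright and 32.5% and 8.09% in dim CMs, with the members' counts at 1 and 3. Both comparisons share the control mice. Between bright and dim CMs, Tnni1 was higher in both mice, as were 25.8% of genes, and Tnni3 was lower in both, as were 25% of genes. The fitted bright against dim log2 difference was 0.54 ± 0.68 for Tnni1 and lay between -0.08 and 0.03 for the other members.

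Across cells of one homozygous class, Tnni3 varied with Tnnt2 and Tnnc1. The correlation of Tnni1 with Tnni3 had a different sign in homozygous dim and bright cells. The mean Spearman correlation of CPM over the 4 homozygous classes (18, 50, 21 and 59 cells) was 0.620 between Tnni3 and Tnnt2, rank 10 of 8713 genes with a count in at least 20% of homozygous cells, and 0.499 between Tnni3 and Tnnc1, rank 36. Between Tnni1 and Tnni3 it was -0.51 and -0.23 in dim cells of M25 and M116 and 0.24 and 0.20 in their bright cells. In cells with at least 1000 genes these were -0.51, -0.14, 0.18 and 0.12. In such cells controls M26 and M73 stood at -0.13 and 0.74, and M72 cells labelled bright and dim at 0.19 and -0.37. Bright cells of M25 include wells low in ventricular markers, and the part of these wells in the correlations was not tested. Tnni1 and hBAG gave 0.05 and 0.49 in dim and -0.14 and 0.03 in bright cells of M25 and M116. Tnni1 and BAG-eGFP gave -0.01 and 0.25 in dim and 0.12 and 0.48 in bright cells of these mice. These are descriptions over cells that share a mouse, a library and the sum of counts in the denominator.

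**Figure D5:**
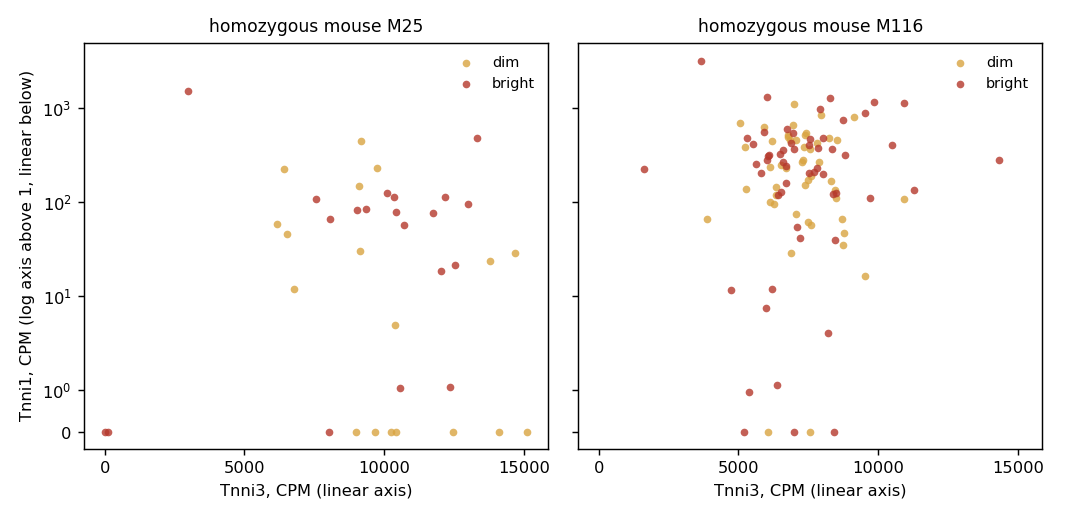
Tnni1 CPM (log axis above 1) against Tnni3 CPM (linear axis) in each cell with at least 1000 detected genes of homozygous mice M25 and M116, coloured by brightness label. Most cells of M116 have 10 to 1000 CPM of Tnni1 at any level of Tnni3, and the bright cells of highest Tnni1 in M25 and M116 have 2965 and 3667 CPM of Tnni3.

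The genes most like Tnni1 by this measure were Tmem251 (mean rho 0.425), Actc1 (0.419), Hsbp1 (0.411), Zc2hc1a (0.408), Timp1 (0.398), Zfp346 (0.381), Tmem53 (0.381), Ywhae (0.381), Uba2 (0.374) and Pigq (0.373). Actc1 encodes cardiac actin, the main actin of the thin filament, and was positive in all 4 classes, from 0.28 to 0.58. Its own level did not follow that of Tnni1 across mice, at 21957 and 11944 raw CPM in controls M26 and M73 and 20480 to 21180 in the homozygous sums. The lowest were Lars2 (-0.330), Gm15564 (-0.306), ND4 (-0.299), ND6 (-0.268) and Ccdc34 (-0.252), of which ND4 and ND6 are mitochondrially encoded complex I subunits. In all, 121 of the 8713 genes reached 0.3 for Tnni1 and 124 for Tnni3, while 2 and 81 lay at -0.3 or below, and the median gene stood at 0.097 and -0.064. For Tnni3 the first were Etfb (0.698), Myl2 (0.691), Myl3 (0.670) and Cox6a2 (0.667), 2 mitochondrial proteins and both ventricular light chains.

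Lists of genes that change with CM age were counted in the same way. The lists here and below were chosen with earlier results of these data known, so their counts are descriptions. Of 12 late CM genes, those known to be higher in the adult heart, 0 passed the test in either direction in any comparison, and their median log2 difference between bright and control CMs was -0.64, against 0.11 for all genes. Of the 12, 8 were lower in both bright sums than in both controls (14.3% of all genes), and 5 by library size (8.24%). Rpl3l, a ribosomal protein of striated muscle, stood at 139 and 131 normalized CPM in controls M26 and M73, 57.0 and 61.0 in dim CMs of M25 and M116, and 29.7 and 23.4 in their bright CMs. Cox7a1, a heart and muscle form of a respiratory chain subunit, had 2298 and 1770 in the controls, 1257 and 744 in dim, and 995 and 764 in bright CMs. Cox8b had a log2 difference of -0.95 ± 0.29. The alpha myosin gene Myh6, at -0.82 ± 0.43, had 8723 in control M26 and 19567 in control M73. Dim CMs had 9046 and 7642, and bright CMs 8677 and 7751. Cells of M72 labelled bright and dim had 14198 and 11822. Control M26 thus lay among the homozygous sums, below M73 and both sums of M72.

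Of 12 early CM genes, high before birth, 10 could be tested in bright against control CMs, with 0 called, a median log2 difference of -0.04, and 2 higher and 0 lower without overlap (4 and 0 by library size), beside 24.6% and 14.3% of all genes (33.7% and 8.24%). Nppa was at 20.2 and 46.4 normalized CPM in controls M26 and M73, 424 and 6.32 in dim CMs of M25 and M116, and 381 and 198 in their bright CMs. It was therefore not high in the dim cells of M116, whose Tnni1 level exceeded that of both M25 sums. The fetal growth RNA H19 was at 2.12 and 170 in the controls and 0.893 to 26.2 in the homozygous sums, and Mdk and Myl7 had under 20 normalized CPM in every sum. H19 and Mdk were higher in control M73 than in any other sum, whereas Tnni1 was lowest there.

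The other sarcomere genes had medians close to or below that of all genes. In 15 thin filament genes the median log2 difference between bright and control CMs was -0.01, with 0 called, and 3 higher and 3 lower without overlap (4 and 2 by library size), beside 24.6% and 14.3% of all genes (33.7% and 8.24%). Tpm2, a tropomyosin of slow muscle, was at 0.335 and 0 normalized CPM in the controls, 1.73 and 7.25 in dim, and 2.12 and 17.1 in bright CMs, while Neb, at -3.40 ± 1.40, had 5.41 in control M26 and 33.3 in control M73, 1.52 and 5.26 in dim, and 0.705 and 3.04 in bright CMs. Tmod4 and Fhod3 stood at 1.02 ± 2.04 and -0.73 ± 0.32. In 11 thick filament genes the median was -0.32, with 1 higher and 5 lower without overlap (24.6% and 14.3% of all genes), which became 3 and 0 by library size (33.7% and 8.24% of all genes), and 0 called. Myl4 and Myh7b had log2 differences of 1.78 ± 1.35 and -1.10 ± 0.94.

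Of 18 maturation regulators, 17 could be tested, with 0 called, a median of 0.26, and 3 higher and 2 lower without overlap (5 and 1 by library size), beside 24.6% and 14.3% of all genes (33.7% and 8.24%). Ppargc1a, a coactivator of mitochondrial genes, had 944 and 1020 normalized CPM in controls M26 and M73, 303 and 325 in dim CMs of M25 and M116, 227 and 227 in their bright CMs, and 446 and 378 in cells of M72 labelled bright and dim. The log2 difference was -2.14 ± 0.27 for bright and -1.66 ± 0.29 for dim against control, and the levels of both homozygous mice were close, unlike those of Tnni1. Dio2, Klf15 and Ppara differed by 1.38 ± 2.45, -1.02 ± 1.28 and -0.95 ± 0.89 between bright and control CMs, each under 40 normalized CPM in every sum.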

How the data were processed

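The deposited table holds raw counts per gene and cell, whole numbers without normalization. Per the study's methods, the authors aligned each cell's reads by STAR against mouse sequence extended with the human BAG3 and eGFP transcripts, and took gene counts from the aligner's GeneCounts output. The submitters' processing notes also name bcl2fastq; the annotation release is not given in the sources used here. Repeated symbols were kept as separate rows. All cells of 1 mouse with the same brightness label were added together, and these sums were tested with edgeR 4.0.16 (R 4.3.3; filterByExpr, TMM, glmQLFit, glmQLFTest, two-sided, Benjamini-Hochberg over all genes tested, threshold 0.05), without a block, on 4 sums per comparison. SE is the log2 difference divided by the root of the F statistic. Normalized CPM uses TMM factors over the 8 sums; raw CPM was used per cell, per coding length (longest coding sequence in GENCODE vM21) and for markers. The fit was tested on simulated counts. DESeq2 1.42.0, limma 3.58.1 (mean log2(CPM + 1) per cell), other scalings, filters, cells and mice were alternatives. Bright and dim CMs come from the same animals, so mouse numbers pair them; differences between M25 and M116 correlated at r = 0.06 over 16615 genes in bright with dim. Named genes are the members, fast troponins, transgene features, up to 4 genes per list with the largest bright against control difference, and the 10 genes most and 5 least like Tnni1. The members and lists were chosen with earlier results of these data known. No doublet caller was run on the hand-picked cells, and all 234 wells entered the sums.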

Additional observations from a re-analysis of the deposited data

Results flagged for a closer look

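In mouse M72, which enters no test, the Tnni1 share of troponin I counts was 0.271% in cells labelled bright and 0.742% in cells labelled dim, both above the upper interval of either control. These cells come from 1 animal whose age was not given, and 59.9% of the Tnni1 counts in the sum labelled dim came from 1 cell. Among cells labelled bright, Tnni1 was detected in 6 of 27 wells (22.2%, against 33.3% in both controls). Their median share was 0, as in both controls, and the intervals cover counting error only.

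By the labels, the difference between brightness classes had opposite signs in the genotypes. Bright minus dim was 0.841 percentage points in homozygous M25 and 1.27 in homozygous M116, and -0.471 in heterozygous M72. Without the cell of highest Tnni1 CPM in each sum the M72 difference was -0.038, and by medians over cells it was -0.016. The difference between genotypes was not tested, since 1 heterozygous mouse gives no replicate, and hBAG was higher in the M72 cells labelled dim (243 normalized CPM) than in those labelled bright (110). Both that transcript and BAG-eGFP (202 against 65.4) run against the brightness labels of this mouse. If the labels were exchanged, the sign would turn and be that of M25 and M116, and these data do not settle which labels apply.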

How the results depend on the processing

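The count of genes called at 2 mice per group moved with the method. Bright against control CMs gave 2 genes with edgeR, 106 with DESeq2, 163 without a filter on low counts, 4 with limma and equal weight for each cell, and 10 with the library name series as a block. Dim against control gave 0 with edgeR and 55, 58, 1 and 12 under the same alternatives. Bright against dim gave 0 with edgeR, 89 with DESeq2, 217 without a filter and 2 with limma. With the mouse as replicate block it also gave 0, and the block changed no call for a member. Leaving out 1 sum at a time gave 0 to 41 calls for bright against control, 0 without control M26 and 41 without bright M116. For dim against control it gave 3 to 827, 827 without control M26, and for bright against dim 0 to 74, 74 without bright M116. The cause of these shifts was not tested. Counts of calls were the same under library size, in cells with at least 1000 genes and without the cell of highest Tnni1; leaving out the 3 wells low in ventricular markers, chosen after the data were seen, gave 3 in place of 2.

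In both comparisons with control, Tnni1 was higher and Tnni3, Tnnt2 and Tnnt1 lower under all alternatives run. Between bright and dim CMs log2 differences of members changed sign in 6 of the alternatives. Leaving out 1 sum splits a pair from one animal, so that the difference between M25 and M116 enters the contrast; with the mouse as replicate block Tnni1 was at 0.70 ± 0.20. Without 1 sum at a time they ranged from -0.21 to 1.78 for Tnni1, -0.35 to 0.22 for Tnni3, -0.28 to 0.18 for Tnnt2, -0.28 to 0.44 for Tnnt1 and -0.20 to 0.31 for Tnnc1; the Tnni1 signs turned without dim M25 (-0.11) and without bright M116 (-0.21), those of Tnni3 in the same settings (0.22 and 0.15), of Tnnt2 likewise (0.16 and 0.18), of Tnnt1 without dim M116 (-0.28) and bright M25 (-0.06), and of Tnnc1 in these (-0.20 and -0.17). Tnnt2 was at 0.027 without the 3 wells, and Tnnc1 at -0.42 with limma.

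The Tnni1 share kept its order of control below dim below bright homozygous CMs in group means under all summaries. As a median over cells it was 0 in control, 0 in M72 cells labelled bright and 0.0165% in those labelled dim. As a mean over cells M72 stood at 0.203% and 0.824%, by coding length at 0.306% and 0.837%, and without the highest cell the sum labelled dim at 0.309%. Leaving out 1 mouse gave 0.0226% to 0.0980% for control, 0.738% to 3.82% for dim and 1.58% to 5.09% for bright CMs, and 0.841 to 1.27 points for bright minus dim. The Tnni1 value of control M73 rests on 11 counts.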
